A study of Mus musculus with 12 samples.

Results

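The genes described here were 161 named protein-coding genes of C2C12, an established line of mouse myoblasts whose cells join into multinucleated myotubes once serum is lowered. They were chosen by level and by name, out of 27943 genes in the deposited tables. A gene was kept where it was annotated as protein-coding and had an FPKM (a fragment level set against gene length and sequencing depth) of at least 1 in 3 or more of its 6 libraries. Predicted gene models, zinc finger, protocadherin, histone and Ugt1a genes and a list of single symbols were left out by name, which removed 149 of the 310 coding genes at that level. The cells had been grown to 80% density in 10% fetal bovine serum and moved to 2% horse serum for 7 days. The control group was untreated, and the other group received 25 µmol/L OI, which is 4-octyl itaconate. This ester of itaconate enters cells and is known to alkylate KEAP1 and thereby activate the transcription factor NRF2. According to the series title, OI represses myogenic differentiation. Each group had 3 libraries of 1 cell line. The labels do not say that these came from separate cultures, so the p-values measure the spread between libraries, which may be technical.

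Fusing myoblasts leave the cell cycle and switch on muscle genes under MyoD and MEF2 factors, while integrins, linker proteins of the nuclear envelope and the microtubule network are rebuilt. Most of the 161 genes are not muscle genes. They encode ribosomal proteins, splicing factors, lysosomal enzymes, nuclear cofactors and membrane enzymes that nearly every cell uses. Most of the 161 carry high-numbered Ensembl identifiers, assigned late in mouse annotation, and some, such as Narf and Scpep1, carry low-numbered ones. Genes with identifiers in between were not analysed here. Many of the 161 overlap another gene model or have a close copy, so that a read can belong to more than 1 gene. Of 49 markers of myotubes, myoblasts, fibroblasts, adipocytes, osteoblasts and dividing cells, 2 had a row in the tables, so the labelled cell type could be checked on few of its defining genes. The slow troponin C gene Tnnc1, a myotube marker, had 126 ± 15.1 FPKM in controls and 23.2 ± 1.39 FPKM with OI (mean ± SD, n = 3). The replication gene Cdc45 had 1.82 ± 0.0797 and 1.80 ± 0.276 FPKM. In such bulk RNA, fewer cells of a type and less RNA per cell cannot be told apart.

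The libraries held 24441000 to 36274000 reads or fragments, recovered from the FPKM steps to the nearest 1000. Control replicate 1 stood apart: the genes in the tables took 23.9% of its reads and 5.25% to 5.77% of those of the other 5 libraries. In it AY036118, which is not among the 161, had 70761 FPKM, beside 691 to 2450 FPKM in the other 5. Malat1, also not among them, had 1769 FPKM, beside 312 to 429 FPKM. The 161 genes themselves took 0.620% to 0.640% of the reads in every library. Control replicate 1 held the highest value of 27 of the 161 genes and the lowest value of 23, against 19 to 33 and 23 to 31 in the other libraries. Values of results without this library are given beside the genes they change.

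Taken as a group, the 161 genes differed little between OI and control. In limma's test on log2(FPKM + 1) over all 1737 genes at this level, 48 genes had an adjusted p under 0.05, or 2.76% (1.15% higher and 1.61% lower with OI). Among the 161 there was 1 such gene, the collagen-binding integrin gene Itga10, which was lower with OI. The 149 coding genes left out by name held 12 of the 48, and those names had been picked with results known, so the low number among the 161 is a description of the choice. Of the 161 genes, 32 had an unadjusted p under 0.05 (19.9%, against 17.8% of all genes tested), 16 in each direction. Pagr1b and Cldn34c2 reached the level rule through the OI libraries alone, so their difference was set by the rule. Without them 30 of 159 genes had such a p, 14 of them higher with OI. The mean was higher with OI in 81 (50.3%) and lower in 80, beside 44.6% higher among all genes tested. The median log2 fold change was 0.00019, beside -0.02 over all genes tested, and the median absolute change was 0.14, beside 0.15.

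On the log2(FPKM + 1) scale most of the differences were bounded as small. This scale makes changes of low genes come out too small, so the bounds say less about those genes. The 95% confidence interval of the log2 fold change lay within -0.5 and 0.5 for 110 of the 161 genes (68.3%, beside 52.6% of all genes tested). For 15 genes (13 without Pagr1b and Cldn34c2) the interval reached below -1 or above 1, so it held a change of 2-fold on that scale. The control and OI libraries did not overlap in 56 genes (34.8%, beside 23.6% of all genes tested), 28 of them higher with OI (26 without Pagr1b and Cldn34c2, beside 11.1% of all genes) and 28 lower (beside 12.5%). Mean levels over the 6 libraries ran from 0.915 to 252 FPKM: 5 genes were at 100 FPKM or more, 52 between 10 and 100, and 104 below 10.

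**Figure D1:**
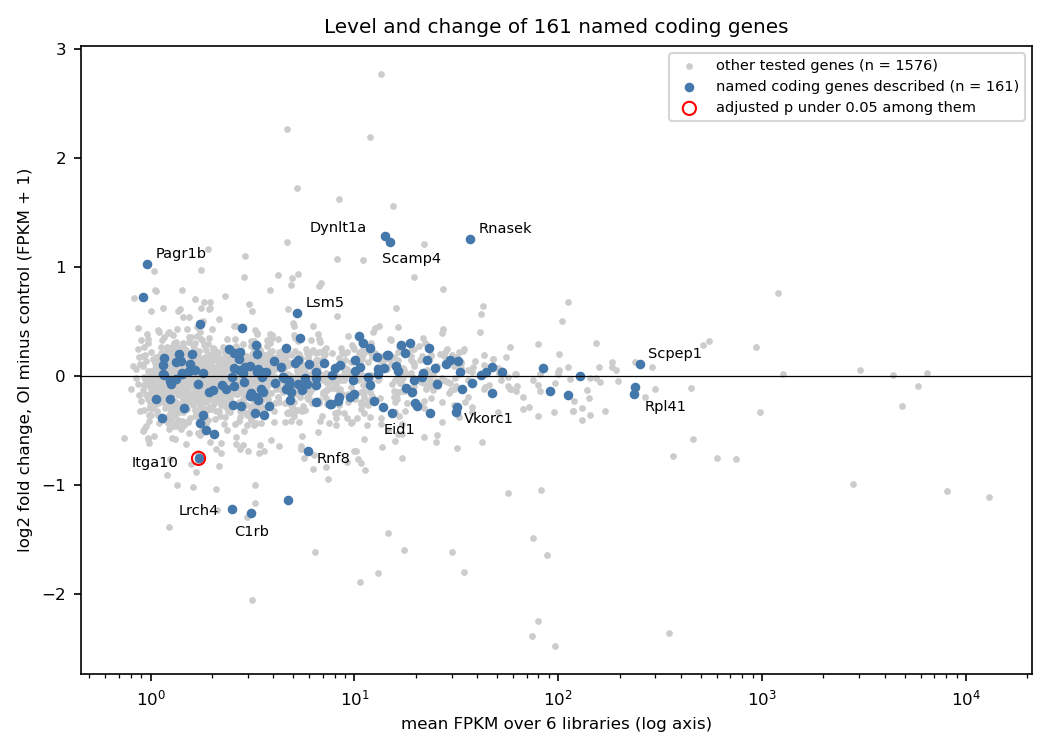
Mean FPKM over the 6 libraries (log axis) against the log2 fold change of OI over control on FPKM + 1, for the 161 genes (blue) and the other 1576 genes tested (grey). The blue points lie between -1.25 and 1.28, and the red circle marks Itga10, which had an adjusted p of 0.0268 in limma.

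Itga10 encodes the alpha 10 chain, which pairs with integrin beta 1 as a receptor for collagens and is best known from cartilage. The gene (ENSMUSG00000090210) lies on the plus strand of mm10 chromosome 3 from 96645584 to 96664519. Its FPKM was 2.51, 2.14 and 2.60 in control replicates 1 to 3 and 0.792, 1.12 and 1.16 in OI replicates 1 to 3. Every OI library was below every control library, and no library stood out within its group. The group means were 2.41 ± 0.245 and 1.03 ± 0.203 FPKM (SD, n = 3), each library holding about 128 to 393 reads of the gene. The log2 fold change was -0.76 (SE 0.12, 95% interval -1.04 to -0.48), with an adjusted p of 0.0268 in limma. At this low level the size rests on the pseudocount: it was -1.17 with 0.1 and -0.30 with 5 in place of 1, with adjusted p of 0.0354 and 0.0275. The call was lost when any 1 library was left out, with log2 fold changes of -0.67 to -0.82 and adjusted p of 0.0676 to 0.0974. Without control replicate 1 the change was -0.73, with an adjusted p of 0.0965. It was also lost when all genes above 0 were tested (adjusted p 0.119).

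Of the exonic bases of Itga10, 33.5% are shared with Gm42957, a predicted coding model on the same strand. Gm42957 had 0.0790, 0.0904 and 0.0920 FPKM in controls and 0.0601, 0.0609 and 0.0645 FPKM with OI. It was low throughout, and no OI library was above a control library. The other integrin chain among the 161, the leukocyte beta 2 chain Itgb2, was at 5.48 ± 0.180 FPKM in controls and 5.15 ± 0.374 FPKM with OI. Its groups overlapped, and its log2 fold change was -0.08 (95% interval -0.27 to 0.12).

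Promoter sequences were taken from RefSeq on GRCm38.p6, the assembly of mm10, for the 120 of 161 genes that its promoter table holds. Each covered 250 bases upstream of the RefSeq start on the gene's strand. The promoters of Itga10 and Vkorc1, with lower means with OI, and of Samd4b, with a higher mean, are printed here. Each holds a motif of a factor named above, and they were picked with the values in view. Other promoters hold such motifs too and are counted below. Among them, Lsm5 and Dchs2 hold the motif printed for Vkorc1 and Samd4b, respectively, and differed in the other direction. The Itga10 promoter is at chr3:96645334-96645583 (plus strand), that of Samd4b at chr7:28436192-28436441 (minus strand) and that of Vkorc1 at chr7:127895618-127895867 (minus strand). The Samd4b window belongs to a RefSeq start inside the Ensembl gene, which runs from 28399522 to 28598144, and not to the outer end of that gene. Capitals mark a match to the MEF2 consensus in Itga10, 61 bases before the start, to the antioxidant response element core TGACNNNGC in Samd4b, 123 bases before it, and to the E-box CAGCTG in Vkorc1, 169 bases before it.
Itga10: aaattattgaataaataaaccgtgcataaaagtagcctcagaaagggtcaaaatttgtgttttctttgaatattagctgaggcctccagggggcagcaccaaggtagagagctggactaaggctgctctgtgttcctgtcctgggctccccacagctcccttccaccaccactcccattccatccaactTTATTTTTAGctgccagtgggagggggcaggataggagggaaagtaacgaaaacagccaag
Samd4b: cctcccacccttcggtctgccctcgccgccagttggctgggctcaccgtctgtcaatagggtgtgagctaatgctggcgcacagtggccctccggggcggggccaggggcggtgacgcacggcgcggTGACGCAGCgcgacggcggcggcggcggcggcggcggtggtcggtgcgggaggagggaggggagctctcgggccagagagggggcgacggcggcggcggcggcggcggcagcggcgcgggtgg
Vkorc1: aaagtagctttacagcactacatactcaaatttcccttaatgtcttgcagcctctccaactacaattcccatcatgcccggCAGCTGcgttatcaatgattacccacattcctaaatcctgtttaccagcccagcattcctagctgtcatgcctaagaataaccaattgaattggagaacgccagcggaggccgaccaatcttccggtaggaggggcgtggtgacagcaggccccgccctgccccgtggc

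The MEF2 consensus was looked for after the Itga10 promoter had been read, on both strands, and was found in 3.42% of 27025 genes with a RefSeq promoter and in 3 of the 120 (2.50%): Itga10, Jmjd7 and Lbhd1. Unlike Itga10, Jmjd7 and Lbhd1 had higher means with OI (log2 fold changes 0.14 and 0.22). TGACNNNGC, the core bound by NRF2 with small Maf proteins, was found on either strand in 11.5% of all genes and in 17 of the 120 (14.2%), 6 of them among the 41 of these 120 genes whose groups did not overlap. Of those 6, Dchs2 was lower with OI (log2 fold change -0.43), and Hddc2, Purb, Samd4b, Scpep1 and Sowahc had higher means. CAGCTG, a site of the MyoD type, was found in 14.7% of all genes and in 14 of the 120 (11.7%), also 6 of them among those 41. Of these 6, Lsm5 and Smim13 had higher means with OI (log2 fold changes 0.58 and 0.15), and Churc1, Flt3l, Syne1 and Vkorc1 had lower means. A TGACNNNGC match can overlap a CAGCTG match by some of its letters. These matches describe letters in a window and no binding was measured.

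**Figure D2:**
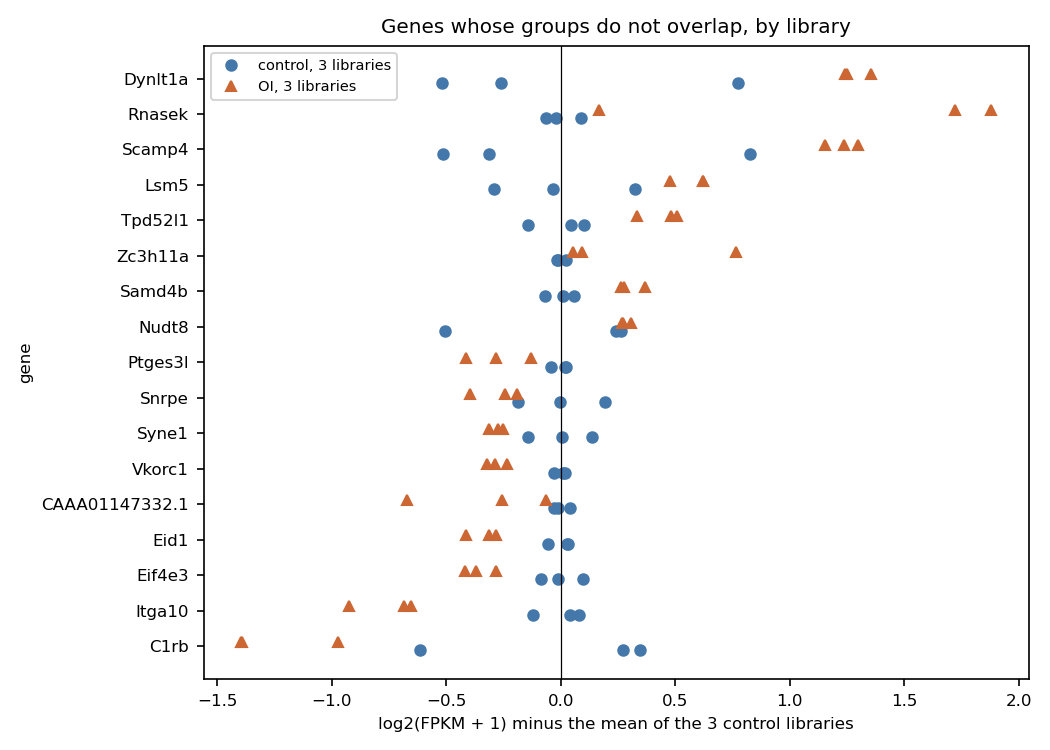
Each library's log2(FPKM + 1) minus the mean of the 3 control libraries (circles, control; triangles, OI), for Itga10 and the 16 genes with the largest changes among those whose groups did not overlap and whose higher group mean was 3 FPKM or more. The control circles of Dynlt1a, Scamp4 and C1rb are spread widely, and those of Vkorc1, Eid1 and Samd4b lie close together.

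Roles were assigned by known function with the values in view, so their counts are descriptions. Among all genes tested, 11.1% were higher and 12.5% lower with OI without overlap. No role was tested against these shares. For some roles the counts from a grouping by symbol patterns are given too. The sign of the median also turned with the grouping for the ubiquitin system (0.02 by role, -0.04 by symbol) and signalling (-0.03 and 0.0025). The called gene Itga10 belongs to the adhesion, cytoskeleton and nuclear envelope genes. Of 16 such genes, 7 had a higher and 9 a lower mean with OI, 3 and 7 of them without overlap, and the median log2 fold change was -0.11. Without Cldn34c2, whose separation the level rule made, it was 6 and 9, with 2 and 7 separate and a median of -0.14. Grouped by symbol patterns, 11 cytoskeleton, adhesion and matrix genes had 7 higher and 4 lower means, 2 of each without overlap, and a median of 0.09, so the sign of the median turned with the grouping. Syne1 encodes nesprin 1, a giant protein that ties nuclei to the cytoskeleton and anchors them in myotubes. It had 3.54, 3.15 and 2.74 FPKM in controls and 2.33, 2.42 and 2.47 FPKM with OI. The OI libraries were close together, and all 3 lay below the lowest control. Its log2 fold change was -0.28 (SE 0.10), with an adjusted p of 0.230 in limma. Drp2, a relative of dystrophin, had 3.34, 3.27 and 3.42 FPKM in controls and 3.01, 3.13 and 2.59 FPKM with OI. All OI values were again below the controls, with a log2 fold change of -0.15 (95% interval -0.36 to 0.06).

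Further genes of this group were picked after their values were seen. Dchs2, a large cadherin of the dachsous type, had 1.91, 2.27 and 2.29 FPKM in controls and 1.43, 1.34 and 1.25 FPKM with OI. The groups were separate, and the log2 fold change was -0.43 (SE 0.09), with an adjusted p of 0.0946 in limma. Palm2, a paralemmin that binds the plasma membrane, had 2.59, 1.88 and 2.58 FPKM in controls and 1.46, 1.66 and 1.03 FPKM with OI. Palm2 shares 39.1% of its exonic bases with Pakap, the model that joins it to Akap2, and Pakap was named by the rule for its high value in control replicate 1. Pakap had 3.05, 2.13 and 1.32 FPKM in controls and 1.01, 1.40 and 1.90 FPKM with OI, and its groups overlapped. In log2 terms the change was -0.49 (SE 0.15, adjusted p 0.160 in limma) for Palm2 and -0.36 (adjusted p 0.493) for Pakap, -0.16 without control replicate 1.

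Sept2, a septin that forms filaments at the membrane, was the most abundant gene of this group. It had 90.7, 97.3 and 99.6 FPKM in controls and 82.5, 90.5 and 88.4 FPKM with OI, where the highest OI value was just under the lowest control. Its log2 fold change was -0.14 (95% interval -0.31 to 0.04), and all of its exonic bases are also those of another Ensembl entry of the same symbol. Quantile normalization turned its sign to 0.043. Dynlt1a and Dynlt1f encode dynein light chains of the Tctex type, which are near copies in the mouse. Dynlt1a had 13.7, 4.99 and 6.16 FPKM in controls and 20.9, 19.4 and 19.3 FPKM with OI. The 3 OI libraries lay together, and control replicate 1 was well above the other controls. At 1.28 (SE 0.32), its log2 fold change was the largest of the 161 genes, with an adjusted p of 0.117 in limma. Without control replicate 1 it was 1.67, with an adjusted p of 0.00275. With any other library left out, the adjusted p was 0.191 to 0.272 in limma. Dynlt1f, picked for comparison after its values were seen, had 23.8, 18.6 and 21.1 FPKM in controls and 23.8, 32.0 and 16.8 FPKM with OI, with no order between the groups.

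The secretory and lysosomal genes numbered 11, with 8 higher and 3 lower means, 4 of the higher ones without overlap, a median log2 fold change of 0.04 and no call. Grouped by symbol patterns, 7 genes of vesicle traffic, small GTPases and lysosome had 3 higher and 4 lower means, 1 of the higher ones without overlap, and a median of -0.04. Scpep1, a serine carboxypeptidase of lysosomes, had the highest mean of all 161 genes. Its FPKM was 239, 239 and 250 in controls and 268, 255 and 262 with OI. Each OI library was above each control, by a log2 fold change of 0.11 (95% interval -0.04 to 0.26), or 0.28 under quantile normalization (adjusted p 0.390 in limma). Rnaset2a, a copy of the lysosomal RNase T2 gene that is 99.1% identical to Rnaset2b, had 52.9, 52.1 and 52.1 FPKM in controls and 51.4, 58.1 and 51.8 FPKM with OI, and the groups overlapped. Hgs, an ESCRT protein that sorts ubiquitinated receptors into endosomes, was picked after its values were seen. It had 21.7, 21.1 and 20.4 FPKM in controls and 24.6, 27.1 and 24.4 FPKM with OI, a log2 fold change of 0.26 (adjusted p 0.146 in limma). Another Ensembl entry of Hgs covers 99.6% of its exonic bases and was not analysed here.

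Scamp4, a secretory carrier membrane protein, had 15.5, 5.52 and 6.49 FPKM in controls and 19.7, 20.9 and 21.9 FPKM with OI. Control replicate 1 lay between the other controls and the OI libraries, as it did for Dynlt1a. Scamp4 had a log2 fold change of 1.23 (SE 0.34), with an adjusted p of 0.139 in limma. Without control replicate 1 it was 1.64, with an adjusted p of 0.00242. Leaving out any other library gave Scamp4 an adjusted p of 0.204 to 0.323 in limma. Of its exonic bases 72.1% are shared with Gm49322, a read-through model not analysed here. Rnasek, a small membrane protein tied to the vacuolar proton pump, had 20.8, 19.2 and 18.6 FPKM in controls and 22.1, 66.7 and 74.6 FPKM with OI. Of the OI libraries, replicate 1 stayed near the controls while replicates 2 and 3 were far above them. Its log2 fold change was 1.26 (SE 0.44, adjusted p 0.230 in limma), and 1.80 without OI replicate 1 (adjusted p 0.000761). Leaving out any other library gave an adjusted p of 0.338 to 0.451 in limma. Rnasek shares 67.7% of its exonic bases with Gm21988, also not analysed here, and how reads were divided between such pairs was not tested.

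The 19 transcription and chromatin genes had 11 higher and 8 lower means, 6 and 3 of them without overlap, a median log2 fold change of 0.08 and no call. Without Pagr1b, whose separation the level rule made, 10 were higher and 8 lower, 5 and 3 of them separate, with a median of 0.05. Eid1 encodes an inhibitor of the acetyltransferase p300 that is known to restrain MyoD-driven transcription. Its FPKM was 17.5, 17.4 and 16.4 in controls and 12.6, 13.9 and 13.6 with OI. The groups were well apart and the replicates close, with means of 17.1 ± 0.613 and 13.4 ± 0.678 FPKM (SD, n = 3). The log2 fold change was -0.34 (SE 0.07, 95% interval -0.51 to -0.16), with an adjusted p of 0.0884 in limma, and 0.0343 where only genes at 5 FPKM or more were tested. Eid1 shares 31.2% of its exonic bases with Shc4 on the opposite strand, and the sources used here do not give the strand setting of the counting. Mnt, a Max partner that opposes Myc, had 13.3, 14.3 and 12.6 FPKM in controls and 15.1, 15.3 and 15.9 FPKM with OI. Its OI libraries were above all controls, with a log2 fold change of 0.19 (SE 0.07) and an adjusted p of 0.258 in limma.

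Of the same group, 3 genes were picked after their values were seen. Vgll3, a TEAD cofactor expressed in myogenic cells, had 13.5, 14.2 and 12.9 FPKM in controls and 14.7, 15.6 and 16.4 FPKM with OI. Noc2l, which binds histones and p53, had 11.7, 12.8 and 11.8 FPKM in controls and 13.6, 14.1 and 13.8 FPKM with OI. Gtf3c2, a subunit of the TFIIIC factor of RNA polymerase III, had 11.6, 10.3 and 10.5 FPKM in controls and 12.6, 13.5 and 13.1 FPKM with OI. In all 3 the groups were separate and the lowest OI library was little above the highest control. The log2 fold changes were 0.19, 0.18 and 0.26, with adjusted p of 0.269, 0.255 and 0.155 in limma.

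The 17 genes of RNA processing and nuclear transport had 11 higher and 6 lower means, 3 and 2 of them without overlap, and a median log2 fold change of 0.06. Samd4b encodes a Smaug-type protein that binds stem-loops in mRNAs and represses them. It had 17.5, 16.9 and 15.9 FPKM in controls and 20.3, 20.5 and 21.9 FPKM with OI. The groups were separate, with a log2 fold change of 0.30 (SE 0.07) and an adjusted p of 0.102 in limma, or 0.0433 where only genes at 5 FPKM or more were tested. Lsm5, a subunit of the Lsm rings that bind U6 snRNA and decaying mRNAs, had 3.87, 5.25 and 3.07 FPKM in controls and 6.68, 5.95 and 6.69 FPKM with OI. The controls were uneven and all lay below the OI libraries, with a log2 fold change of 0.58 (SE 0.16, adjusted p 0.146 in limma).

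Snrpe, a core Sm protein of spliceosomal particles, had 22.2, 19.4 and 25.5 FPKM in controls and 19.3, 16.7 and 18.6 FPKM with OI. The highest OI library all but met the lowest control, and the log2 fold change was -0.28 (95% interval -0.56 to 0.01). Snrpn, the imprinted Sm protein of brain and muscle, had 4.36, 4.49 and 4.86 FPKM in controls and 4.56, 4.06 and 4.89 FPKM with OI, a log2 fold change of -0.02 (95% interval -0.24 to 0.20). The entry listed as U2af1l4, the symbol of a relative of the splice site factor U2AF1, was picked after its values were seen. It had 2.88, 2.26 and 2.67 FPKM in controls and 2.02, 1.18 and 1.32 FPKM with OI, without overlap. Its log2 fold change was -0.53 (SE 0.15, adjusted p 0.143 in limma). GENCODE M21 names this entry Gm49396, and 39.2% of its exonic bases are shared with Igflr1. Another entry with the symbol U2af1l4 covers 33.6% of them and was not analysed here. The values may therefore not be those of U2af1l4 alone.

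The 9 genes of the ribosome and translation had 3 higher and 6 lower means, 1 of the lower ones without overlap, and a median log2 fold change of -0.10. Eif4e3, an atypical cap-binding protein, had 4.54, 4.13 and 3.87 FPKM in controls and 2.87, 3.26 and 3.00 FPKM with OI. All OI libraries were below the controls, with a log2 fold change of -0.36 (SE 0.09, adjusted p 0.110 in limma). The ribosomal protein genes were abundant, and in them the libraries differed more within the groups than between them. Rpl41 had 258, 225 and 262 FPKM in controls and 271, 194 and 206 FPKM with OI. Rpl24 had 256, 231 and 254 FPKM in controls and 258, 219 and 215 FPKM with OI. Rps27 had 113, 106 and 134 FPKM in controls and 127, 91.3 and 95.8 FPKM with OI. Control replicates 1 and 3 and OI replicate 1 were the 3 highest libraries in each of them, and also in Tma7, a small protein of the translation machinery. This held for 4 of these 5 genes, counted with Rps13.

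Tma7 had 49.5, 46.5 and 53.0 FPKM in controls and 51.0, 40.8 and 42.4 FPKM with OI. The log2 fold changes of Rpl41, Rpl24, Rps27 and Tma7 were -0.16, -0.10, -0.17 and -0.15, with 95% intervals that all held 0. Under quantile normalization Rpl24 and Rps27 had 0.037 and 0.064, and Rpl41 -0.045. Hspa14, an Hsp70 relative of the ribosome-associated complex, was even in all libraries, with 9.91 ± 0.363 FPKM in controls and 10.3 ± 0.200 FPKM with OI.

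**Figure D3:**
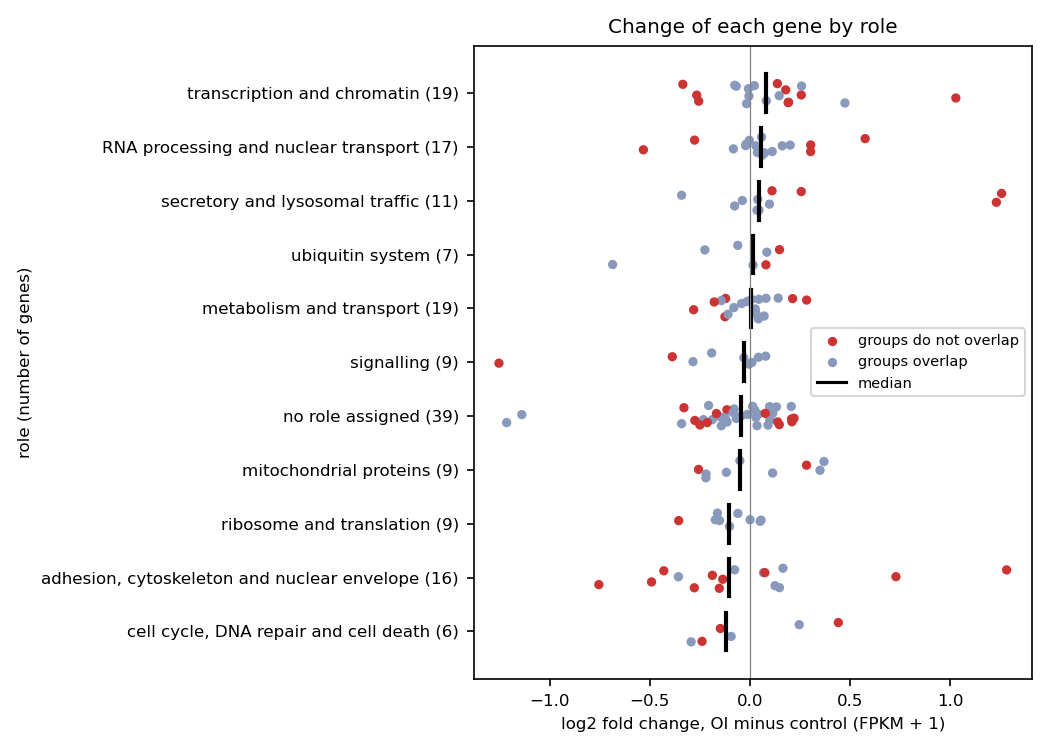
Log2 fold change of each of the 161 genes on FPKM + 1, by role, with the number of genes in each role, the median as a bar, and genes whose control and OI libraries did not overlap in red. Medians lie between -0.12 (cell cycle, DNA repair and cell death) and 0.08 (transcription and chromatin), and the 19 genes of metabolism and transport lie between -0.28 and 0.28.

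Among the roles, metabolism and transport had the largest share of genes with a 95% interval within -0.5 and 0.5. Grouped by symbol patterns, 10 of 12 genes of lipid, glycan, nucleotide and amino acid metabolism had such an interval. So did 7 of 7 genes of transcription and chromatin, so the order turned with the grouping. Of the 19 metabolism and transport genes by role, 10 had a higher and 9 a lower mean, and in 18 the 95% interval lay within -0.5 and 0.5. Galnt2, which starts mucin-type O-glycans, had 43.3 ± 1.72 FPKM in controls and 44.6 ± 1.94 FPKM with OI. Slc5a3, the sodium-coupled myo-inositol transporter, had 41.5 ± 1.82 and 41.7 ± 2.26 FPKM, a log2 fold change of 0.0072 (95% interval -0.17 to 0.18). Tmem189, the desaturase that makes plasmalogens, had 21.4 ± 0.563 and 21.9 ± 0.863 FPKM. In each of these 3 genes the control and OI values were interleaved.

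Vkorc1, the vitamin K epoxide reductase that warfarin inhibits, was an abundant gene of this role with separate groups. Its FPKM was 35.5, 34.5 and 35.6 in controls and 28.7, 27.9 and 29.8 with OI. Both groups were tight and far apart for their spread, and the log2 fold change was -0.28 (SE 0.06, 95% interval -0.43 to -0.13). Its adjusted p was 0.0959 in limma, and 0.0313 where only genes at 5 FPKM or more were tested. It shares 47.7% of its exonic bases with Gm21974, which was not analysed here. Entpd4, a Golgi nucleotidase whose transcript is 100% identical over its match to that of Entpd4b, was picked after its values were seen. It had 4.83, 4.84 and 4.85 FPKM in controls and 4.35, 4.37 and 4.37 FPKM with OI. Its replicates were the closest of all 161 genes, yet its log2 fold change was only -0.12, with an adjusted p of 0.404 in limma, which draws each gene's spread toward that of other genes at its level. Nudt8, a mitochondrial Nudix hydrolase, had 1.69, 3.52 and 3.58 FPKM in controls and 3.73, 3.62 and 3.60 FPKM with OI. Only control replicate 1 was low, and without it the log2 fold change went from 0.28 to 0.03. Nudt8 shares 65.3% of its exonic bases with Gm49405, which was not analysed here.

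The 9 mitochondrial genes had 4 higher and 5 lower means, 1 of each without overlap. Tomm20, a receptor of the outer membrane import complex, had 27.0, 25.7 and 27.9 FPKM in controls and 29.3, 30.9 and 27.2 FPKM with OI. The lowest OI library lay within the controls, and the log2 fold change was 0.11 (95% interval -0.07 to 0.30). Mrpl33, a mitochondrial ribosomal protein picked after its values were seen, had 8.37, 7.99 and 8.54 FPKM in controls and 7.61, 6.50 and 6.30 FPKM with OI, a log2 fold change of -0.26 (adjusted p 0.230 in limma).

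Signalling genes numbered 9, with 3 higher and 6 lower means. Lamtor5, a subunit of the Ragulator complex that holds mTORC1 on lysosomes, was the most abundant of them, with 80.1, 79.6 and 86.0 FPKM in controls and 87.3, 87.4 and 84.8 FPKM with OI. Its groups overlapped, and the log2 fold change was 0.08 (95% interval -0.08 to 0.23), or 0.29 under quantile normalization (adjusted p 0.222 in limma). Tnfsf12 encodes TWEAK, a cytokine known to act on muscle, and had 10.7, 10.6 and 9.35 FPKM in controls and 8.53, 8.57 and 9.38 FPKM with OI. OI replicate 3 and control replicate 3 met, and the log2 fold change was -0.19 (95% interval -0.40 to 0.01). Flt3l, the ligand of the FLT3 receptor, was picked after its values were seen, and had 1.48, 1.22 and 1.60 FPKM in controls and 0.747, 0.818 and 1.00 FPKM with OI. Its groups were separate, with a log2 fold change of -0.39 (adjusted p 0.151 in limma).

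C1rb, a copy of the complement protease gene C1r, had the most negative fold change of the 161 genes. It had 5.78, 2.67 and 6.14 FPKM in controls and 1.14, 1.13 and 1.86 FPKM with OI. Control replicate 2 was less than control replicates 1 and 3 and still above all OI libraries. The log2 fold change was -1.25 (SE 0.28, 95% interval -1.93 to -0.58), with an adjusted p of 0.0998 in limma. It was -1.56 with an adjusted p of 0.0220 without control replicate 2. With any other library left out, the adjusted p was 0.173 to 0.247 in limma. Its transcript is 97.9% identical to that of C1ra, which was not analysed here, so the reads of both may be mixed in this value.

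The cell cycle, DNA repair and cell death genes numbered 6, with 2 higher and 4 lower means. Tpd52l1, a coiled-coil protein of the tumour protein D52 family, had 1.92, 2.45 and 2.32 FPKM in controls and 3.58, 3.50 and 3.06 FPKM with OI. All OI libraries were above the controls, and the log2 fold change was 0.44 (SE 0.10, adjusted p 0.101 in limma). The 2 genes named next were picked after their values were seen. Cdkn2d, the cyclin-dependent kinase inhibitor p19, had 7.49, 7.06 and 6.80 FPKM in controls and 5.74, 5.88 and 5.99 FPKM with OI, a log2 fold change of -0.24 (adjusted p 0.163 in limma). Bcl2l2, a survival protein of the BCL2 family, had 20.8, 20.6 and 19.4 FPKM in controls and 18.6, 18.2 and 17.8 FPKM with OI, a log2 fold change of -0.15 (adjusted p 0.307). Both had separate groups and small differences.

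In the ubiquitin system, 4 of 7 genes had a higher and 3 a lower mean. Ube2d2a, an abundant ubiquitin-conjugating enzyme, had 44.9, 47.2 and 46.3 FPKM in controls and 47.3, 51.7 and 47.5 FPKM with OI, a log2 fold change of 0.08 (95% interval -0.08 to 0.24). For 39 genes no role was assigned. Among these, Narf, a nuclear protein that binds prelamin A, had 21.8, 22 and 21.1 FPKM in controls and 17.1, 18.5 and 18.5 FPKM with OI. Its groups were apart and tight, with a log2 fold change of -0.25 (SE 0.07, adjusted p 0.132 in limma). Ptges3l had 4.10, 4.32 and 4.32 FPKM in controls and 2.94, 3.79 and 3.31 FPKM with OI, a log2 fold change of -0.28 (adjusted p 0.230 in limma). Of its exonic bases 28.7% are shared with Gm27029 on the same strand. Gm27029 had 2.03, 0.236 and 1.65 FPKM in controls and 1.20, 3.96 and 2.72 FPKM with OI, and its groups overlapped (log2 fold change 0.68). CAAA01147332.1, on an unplaced contig, had 36.0, 34.8 and 34.3 FPKM in controls and 21.7, 33.5 and 29.2 FPKM with OI, where OI replicate 1 made most of the difference. Its log2 fold change was -0.33 (95% interval -0.71 to 0.05), and -0.16 without that library.

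Replicate spread was widest among genes that share most of their exons with another gene. Of the 161 genes, 101 share exonic bases with another gene in GENCODE M21, 75 of them on the same strand, 22 have a near-identical coding match, and 52 have neither. Where 1 other gene covers 50% or more of the exonic bases (23 genes), the median SD between replicates was 0.31 on the log2(FPKM + 1) scale, and 12 genes were above 0.3. With a smaller overlap (78 genes) the median was 0.09 and 4 genes were above 0.3, and with none (60 genes) it was 0.11 with 6 above 0.3. The examples that follow, apart from Lrch4 and Zc3h11a, were picked after their values were seen.

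**Figure D4:**
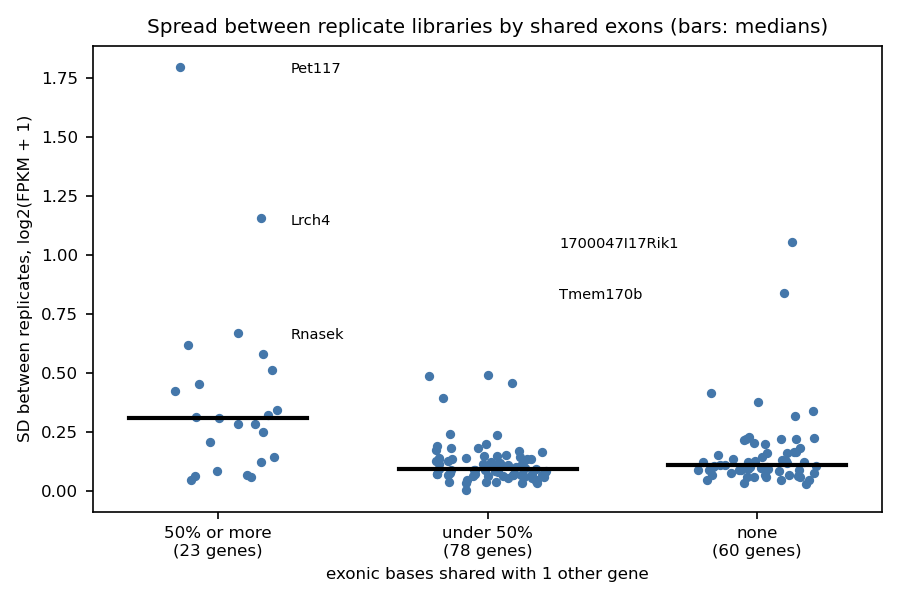
SD between replicate libraries on the log2(FPKM + 1) scale, pooled over both groups, for the 161 genes by the share of exonic bases that 1 other gene covers, with the median as a bar. The median is 0.31 for 23 genes at 50% or more, 0.09 for 78 genes under 50% and 0.11 for 60 genes with none, and Pet117 lies highest at 1.80.

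Pet117, an assembly factor of cytochrome c oxidase, lies wholly within exons of Kat14. It had 5.61, 0.0473 and 7.31 FPKM in controls and 8.85, 0.0398 and 10.6 FPKM with OI. In each group replicate 2 was near 0 while the other libraries were well expressed, so the groups could not be compared (log2 fold change 0.35, 95% interval -2.50 to 3.20). Lrch4, which shares 77.2% of its exonic bases with Gm20605, had 3.28, 9.47 and 0.229 FPKM in controls and 0.238, 0.457 and 1.44 FPKM with OI. Its controls ran from the lowest to the highest value of the 6 libraries, with a log2 fold change of -1.22 (95% interval -3.05 to 0.62). It was -0.49 without control replicate 2 and -2.03 without control replicate 3. 1700047I17Rik1, whose transcript is 100% identical over its match to 1700047I17Rik2, was at 4.08 and 5.80 FPKM in OI replicates 1 and 3 and listed at 0 in OI replicate 2, with 5.48 to 6.60 FPKM in controls.

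In a few loci the overlapping model is itself in the tables, and its values can be set beside those of the gene. Rnf8, a ubiquitin ligase of the DNA damage response, had 7.81, 6.73 and 7.39 FPKM in controls and 3.11, 2.74 and 7.93 FPKM with OI. Gm28043, which covers 13.2% of its exonic bases, had 1.77, 2.21 and 1.67 FPKM in controls and 4.79, 4.15 and 1.09 FPKM with OI. Where Rnf8 was low, in OI replicates 1 and 2, Gm28043 was high, and OI replicate 3 was like the controls in both. For Rnf8 the log2 fold change was -0.69 (adjusted p 0.346 in limma), and -1.08 without OI replicate 3 (adjusted p 0.0152). Leaving out any other library gave an adjusted p of 0.469 to 0.606 in limma.

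Zc3h11a, a zinc finger protein of mRNA export, had 9.48, 9.77 and 9.51 FPKM in controls and 17, 9.98 and 10.3 FPKM with OI. Gm38394, which spans Zc3h11a and the gene Zbed6 in its intron, had 26.9, 28.8 and 29.9 FPKM in controls and 7.70, 30.5 and 29.3 FPKM with OI. A further row with the symbol Zc3h11a had 9.82 FPKM in OI replicate 1 and 0.129 to 0.726 FPKM in the other 5 libraries. OI replicate 1 was thus high in both Zc3h11a rows and low in the model that spans them, which was not seen in the other OI libraries. For Zc3h11a the log2 fold change was 0.30 (95% interval -0.17 to 0.78), and 0.07 without OI replicate 1. Zbed6, a repressor of Igf2 in muscle that lies wholly within Gm38394, had 35.9, 24.2 and 23.0 FPKM in controls and 36.5, 20.0 and 37.5 FPKM with OI, with no order between the groups.

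**Figure D5:**
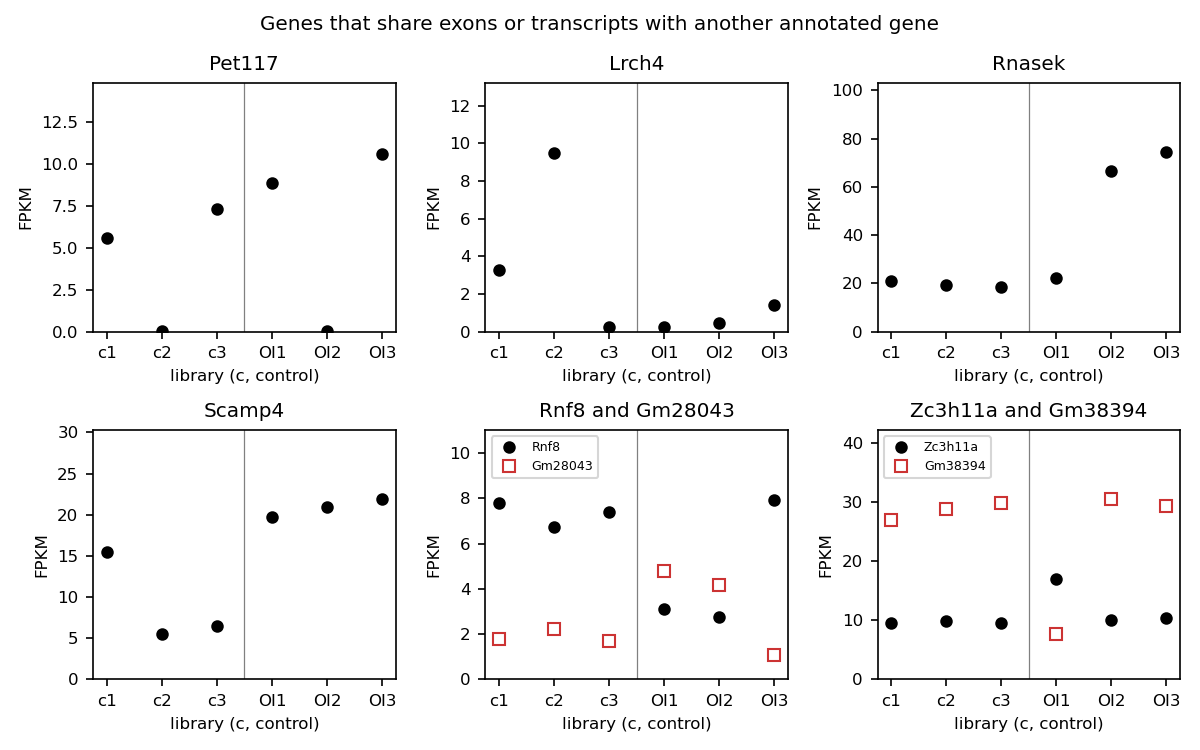
FPKM in each of the 6 libraries (control c1 to c3, OI1 to OI3) for Pet117, Lrch4, Rnasek, Scamp4, Rnf8 and Zc3h11a, with the overlapping models Gm28043 and Gm38394 as open squares. Pet117 is near 0 in replicate 2 of both groups, and Gm28043 and Gm38394 are displaced in the same libraries as Rnf8 and Zc3h11a, in the opposite direction.

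The level threshold left 1027 of 1188 coding genes with these names out, 733 of which were listed at 0 in all 6 libraries. Of the 161 genes kept, 145 were at 1 FPKM or more in all 6 libraries and 16 in 3 to 5. Just inside were Pagr1b, with 1.03 FPKM in the library that decided it, the third highest, Tex9 with 1.16 and Ccpg1os with 1.17. Just outside were Frg2f1 with 0.959, Lime1 with 0.946 and Ccdc142 with 0.920 FPKM. Pagr1b and Cldn34c2 passed through the OI libraries alone, so that the threshold itself made their groups differ, and their p-values are not read as a result. Pagr1b, a copy of a subunit gene of histone methyltransferase complexes, had 0, 0.0473 and 0.866 FPKM in controls and 1.35, 1.03 and 2.47 FPKM with OI. Gm42742, which shares 50.1% of its exonic bases, had 2.66, 3.68 and 0.976 FPKM in controls and 1.02, 0.942 and 1.01 FPKM with OI. Cldn34c2, a claudin-like gene that is 99.9% identical to Cldn34c1, had 0.641, 0 and 0.760 FPKM in controls and 1.37, 1.22 and 1.498 FPKM with OI. No gene passed through the control libraries alone.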

How the data were processed

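RNA of 3 control and 3 OI libraries was analysed. A second set of 6 samples was not analysed here, nor were genes with identifiers between ENSMUSG00000000320 and ENSMUSG00000083778. Per the labels' protocols, RNA was extracted with RNAiso Plus and made into TruSeq libraries. Per the submitters' processing notes, cutadapt 2.7, HISAT2 2.1.0, StringTie 1.3.3b and build mm10 were used. The sources used here do not give the annotation release or strand setting. The authors deposited FPKM values, 1 table per library.

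Genes at 1 FPKM or more in at least 3 of 6 libraries (1737) were tested with limma 3.58.1 (R 4.3.3, trend=TRUE, two-sided) on log2(FPKM + 1), with Benjamini-Hochberg adjustment over all of them. Fold changes are on that scale, where changes of low genes come out too small. Simulated data with known changes were used to test the fit. Library sizes came from genes of 1 exon, where FPKM times length fell within 0.01 of whole multiples of 1 step in 98.5% to 99.8% of values per library; read numbers of other genes are approximate. Shared exons came from GENCODE M21 with bedtools 2.31.1, which holds all 161 identifiers, 148 of them at the same place. Near-identical matches came from BLAST+ 2.17.0 (at least 90% identity over 80% of the transcript, E-value at most 1e-10). Python 3.11.15, pandas 2.3.3 and Matplotlib 3.10.9 made the tables and figures.

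The genes, lists and tests were chosen with earlier results of these data known, and roles were assigned by known function with the values in view. The naming rule took called genes, up to 8 separated genes per direction at 3 FPKM or more in the higher group, the 10 most abundant, the most abundant of each of 16 symbol lists, 5 genes in which control replicate 1 lay furthest from the rest, and the 3 on each side of the level threshold. It gave 42 of the 161 genes, of which 1 is not reported here; the others named were chosen after their values were seen. The alternatives were quantile normalization, scaling by median of ratios, pseudocounts of 0.1 and 5, testing all genes above 0, testing only those at 5 FPKM or more, trend=FALSE, array weights, a block for the replicate number, a fit on genes with no shared exons or match, and each library left out.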

Additional observations from a re-analysis of the deposited data

How the results depend on the processing

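Itga10 passed the threshold in 7 of 15 settings (adjusted p 0.0268 to 0.138 in limma, the highest with the replicate block) and kept its direction in all of them. The number called among the 161 genes was 1. It was 3 of 85 with a filter at 5 FPKM, where 19 of all 591 genes were called higher and 30 lower. It was 0 with no filter, 0 with the replicate block and 0 on genes without shared exons or copies. When 1 library was left out it was 0 to 2, the 2 being Dynlt1a and Scamp4 without control replicate 1. Over all genes tested, 20 were called higher: 3 with no filter, 3 with the block, 2 on genes without shared exons or copies, and 2 to 11 with 1 library left out. The 28 called lower became 11, 14, 3 and 13 to 16. The replicate numbers did not pair the samples, with correlations of 0.047, 0.14 and -0.084 between same-numbered libraries. On genes without shared exons or copies, 52 of the 161 remained, 22 with a higher mean, and 7 higher and 9 lower without overlap. At 5 FPKM, 85 of the 161 were tested: 46 had a higher mean, and 19 were higher and 14 lower without overlap. The share without overlap over all genes was not counted in either setting. The smaller numbers of these settings come with fewer genes tested. The cause of the other differences was not tested. Reversals touched named genes that were not called in any setting. With 1 library left out, the log2 fold change of Ccpg1os ran from -0.028 to 0.088, of Slc5a3 from -0.034 to 0.039, of Rnaset2a from -0.022 to 0.066, of Tex9 from -0.010 to 0.034 and of Snrpn from -0.070 to 0.039. Snrpn went to 0.00030 with median-of-ratios scaling. Quantile normalization gave Rpl24 0.037, Rps27 0.064 and Sept2 0.043. Genes under a few FPKM can hold few reads, such as 0 to 44 for Pagr1b, while the long gene Syne1 held about 1773 to 2685. Small changes in genes with few reads were not detectable.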
